A study of Mus musculus with 13 samples.

Results

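The genes described here encode structural subunits of mitochondrial complex I, the NADH:ubiquinone oxidoreductase. They were taken by name: every probe set of the array that carried a single gene symbol made of Ndufa, Ndufb, Ndufc, Ndufs or Ndufv and a number was kept, which gave 72 probe sets for 34 of the 18193 genes with a single-symbol probe set. Each gene was represented by its probe set with the highest mean over the 13 arrays. Of the 34 genes, 33 passed the filter on low values and were tested among 15019 genes. Ndufb4 did not pass, because its single-symbol probe set exceeded the filter level on 2 arrays only. Ndufs6 and Ndufa11 entered no test, because no probe set carried their symbol alone.

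The arrays hold RNA from 3 regions of the embryonic lower urinary tract of the mouse and from a newborn standard. All region samples came from embryonic day 14, from FVB/N mothers mated to males with the SMGA/EGFP transgene, a green fluorescent reporter for smooth muscle gamma-actin (Actg2). Fluorescent tissue gave the bladder (3 arrays, replicates 2, 6 and 8) and the urethra (3 arrays, replicates 1, 2 and 6), and non-fluorescent tissue between them gave the urogenital sinus (4 arrays, replicates 1, 2, 6 and 7). The arrays numbered 1 and 2 held embryos of Theiler stage 21, and those numbered 6, 7 and 8 embryos of the next stage, 22, both within embryonic day 14. The sex of the embryos is not known, and region samples were not pooled. The newborn reference (3 arrays, replicates 1 to 3) was RNA of whole wild-type FVB/N mice at postnatal day 1, pooled from 4 males and 4 females, so it mixes all organs and differs from the regions in age, genotype and tissue together. Nothing in the labels says that same-numbered samples came from the same embryo or that samples of a group came from different litters, so a p-value speaks for the spread among these samples, which may be technical.

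Complex I is the entry point of the respiratory chain. It takes electrons from NADH, passes them over a flavin and a row of iron-sulfur clusters to ubiquinone, and pumps protons across the inner mitochondrial membrane. Its peripheral arm reaches into the matrix and its membrane arm lies in the inner membrane; core subunits do the chemistry, accessory subunits surround them, and the core of the membrane arm is encoded by mitochondrial DNA and is not among these nuclear genes. Tissues with much respiration, such as heart, skeletal muscle and brown fat, are known for high levels of the complex. By role, the 33 tested genes comprised 6 core subunits of the peripheral arm, 8 accessory subunits of the peripheral arm, 8 of the proximal and 10 of the distal membrane arm, and Ndufa4, which has kept a complex I name but is now assigned to complex IV.

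Upstream sequences were read for the genes on which the results below turn. Ndufa12, Ndufa6 and Ndufs8 are 3 of the members whose values at the later stage were lower without overlap, Ndufs3 had the smallest spread between replicates, and Ndufa9 had values that ran against most other members between stages. The RefSeq promoter table (GRCm38.p6) held an entry for 31 of the 34 genes. Each line gives the 150 bases before the start site, 5′ to 3′ on the gene's strand, and capitals mark TGCGCA or CCGGAAG.
Ndufa12, chr10:94198885-94199034, plus strand: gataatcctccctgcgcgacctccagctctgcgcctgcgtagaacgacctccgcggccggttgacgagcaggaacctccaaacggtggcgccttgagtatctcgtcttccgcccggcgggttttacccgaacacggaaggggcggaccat
Ndufa6, chr15:82354292-82354441, minus strand: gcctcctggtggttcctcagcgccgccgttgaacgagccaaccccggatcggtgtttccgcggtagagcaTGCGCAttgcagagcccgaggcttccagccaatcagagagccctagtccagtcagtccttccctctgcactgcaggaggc
Ndufs8, chr19:3912775-3912924, minus strand: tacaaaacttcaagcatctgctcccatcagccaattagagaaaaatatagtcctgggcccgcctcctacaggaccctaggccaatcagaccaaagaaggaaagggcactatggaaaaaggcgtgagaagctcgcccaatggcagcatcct
Ndufs3, chr2:90904722-90904871, minus strand: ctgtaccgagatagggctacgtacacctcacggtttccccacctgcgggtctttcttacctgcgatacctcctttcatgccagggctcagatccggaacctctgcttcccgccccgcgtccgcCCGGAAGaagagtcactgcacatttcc
Ndufa9, chr6:126849145-126849294, minus strand: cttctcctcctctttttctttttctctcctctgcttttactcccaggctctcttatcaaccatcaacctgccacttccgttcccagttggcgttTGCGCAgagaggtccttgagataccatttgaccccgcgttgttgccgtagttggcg

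Motifs were then counted on both strands in the 300 bases from 250 before to 50 after the start site, in the members and in all 32851 promoters of the table. The full motif of nuclear respiratory factor 1 (NRF1, a regulator of respiratory chain genes) was in 0 of 31 members and in 0.971% of all promoters. The shorter TGCGCA, which reads the same on both strands and overlaps the full motif in part, was in 9 of 31 members (29%) and in 7.76% of all promoters. The ETS motif CCGGAAG was in 4 members (12.9%) and 8.86% of all promoters. The YY1 motif AAGATGGC was in 6 members (19.4%), namely Ndufa3, Ndufa9, Ndufb8, Ndufc1, Ndufs4 and Ndufs7, and in 2.75% of all promoters. In all 6 it lay on the gene's own strand and began 23 to 39 bases after the start site. In Ndufa9 it stood in the window chr6:126849097-126849126, minus strand, with the motif in capitals.
Ndufa9, YY1 motif: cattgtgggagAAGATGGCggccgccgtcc
The TATA box letters TATAAA were in 4 members (12.9%) and 13.6% of all promoters, and CCAAT was in 9 members (29%) and 37.4%. A match of letters describes the sequence and does not show a bound site. No motif searched was in all 3 of Ndufa12, Ndufa6 and Ndufs8: Ndufa6 held TGCGCA and CCAAT, Ndufs8 held CCGGAAG (after its start site) and CCAAT, and Ndufa12 held none of those searched.

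Values are log2 intensities, and every array had been scaled by the authors to a 2% trimmed mean of 1500. This scaling does not fix the median: the median intensity of an array ranged from 142 to 455, and the share of probe sets over the filter level from 47.1% to 71.4%. The summed intensity of 6 smooth muscle markers was 69210.5 to 87051 on bladder arrays, 67357 to 92582 on urethra arrays and 5758 to 27534 on sinus arrays. Of these 6 markers, 5 were called higher in bladder than in sinus, and 1 was lower without overlap, at a log2 difference of -2.30. In urethra 5 lay above the sinus and 1 below it, with none called. The summed intensity of 4 erythroid markers was highest on urogenital sinus replicate 1 (145301) and urethra replicate 1 (111567). Of 8 skeletal muscle markers, the sum reached 19930 on urethra replicate 2 and stayed at or under 3616 on every other region array. Neuron markers, 4 tested, summed to 805 on urogenital sinus replicate 1 and up to 26306 on another sinus array. In bulk tissue, fewer cells of a type and less RNA per cell cannot be told apart.

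The mean log2 intensity of the 33 genes was 12.86, 12.43 and 12.42 on bladder replicates 2, 6 and 8. On urogenital sinus replicates 1, 2, 6 and 7 it was 13.38, 13.16, 12.32 and 12.27. On urethra replicates 1, 2 and 6 it was 13.23, 12.97 and 12.71, and on the 3 reference arrays 13.50, 13.54 and 14.09. Within each region the arrays of Theiler stage 21 were above those of stage 22, and every reference array was above every region array. The sinus arrays spread over more than 1 log2 unit, wider than the distance between the region means.

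**Figure D1:**
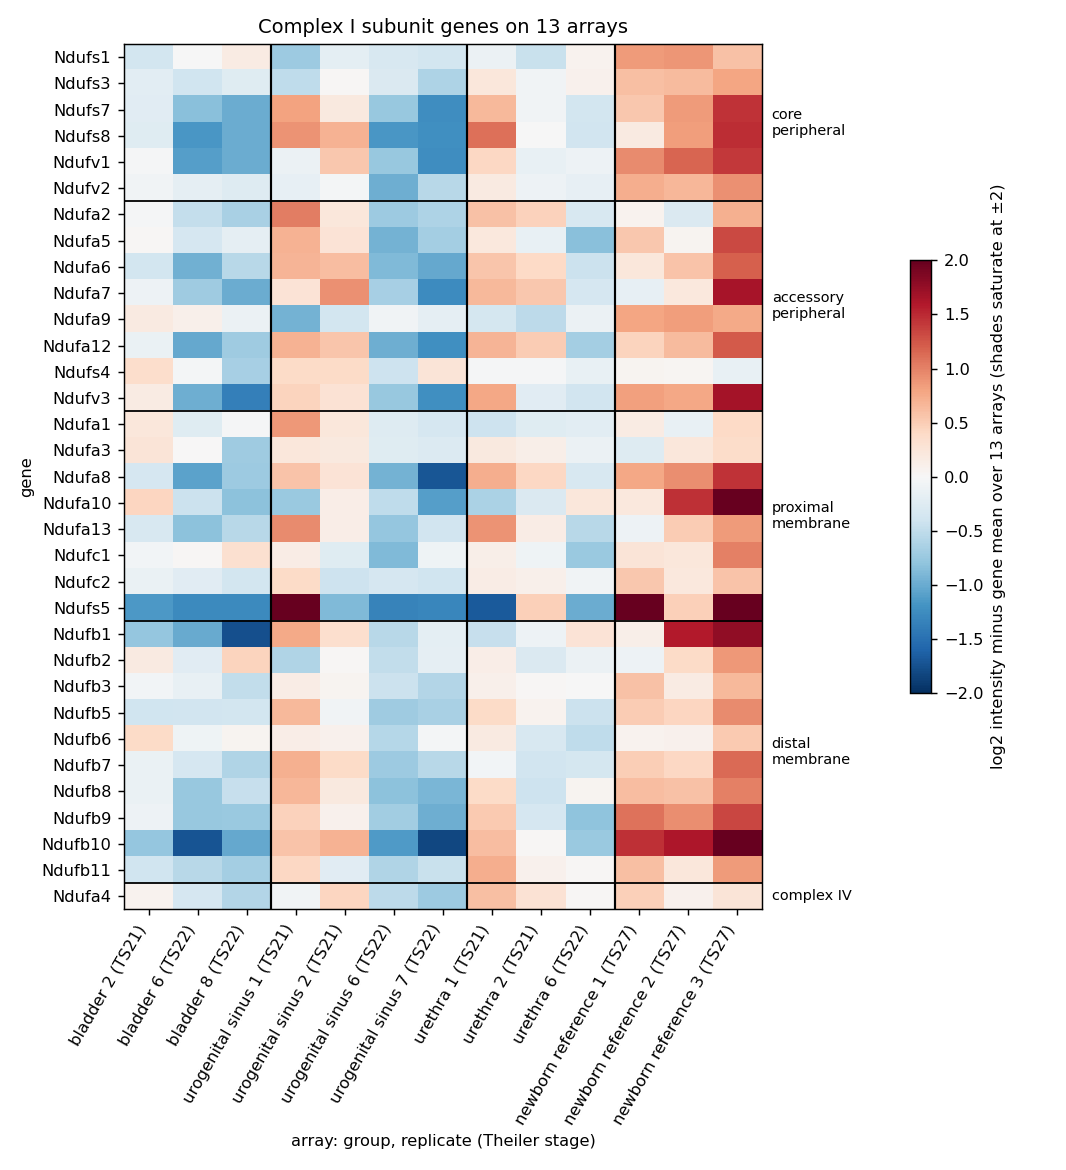
Log2 intensity of each of the 33 tested genes (rows, by role) on the 13 arrays (columns, by group, replicate and Theiler stage), as the difference from the gene's mean over the arrays. Red is above and blue below that mean; most rows are red on the reference arrays and bluer on the stage 22 than on the stage 21 arrays of the same region.

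Members differed in how much they varied within regions. The SD around the region means over the 10 region arrays was smallest for Ndufs3 (0.207), a core subunit that helps hold the iron-sulfur part of the peripheral arm, and largest for Ndufs5 (1.54), an accessory subunit facing the intermembrane space. Ndufs3 read 13.32, 13.14 and 13.29 on bladder replicates 2, 6 and 8, 13.04, 13.56, 13.26 and 12.92 on sinus replicates 1, 2, 6 and 7, and 13.76, 13.47 and 13.63 on urethra replicates 1, 2 and 6. Ndufs5 read 6.85, 6.72 and 6.73 in bladder, 11.15, 7.12, 6.66 and 6.70 in sinus, 6.33, 8.48 and 7.0 in urethra, and 10.66, 8.48 and 11.10 in the reference. All its bladder arrays lay under the filter level of 7.39. Sinus replicate 1 was above the 3 reference arrays, and urethra replicate 2 was level with the lowest of them. Another Ndufs5 probe set, which also names a pseudogene, was over the filter level on all arrays and varied less in sinus and urethra but more in bladder, at 10.28 ± 0.17 (SD, n = 3) in bladder, 10.13 ± 0.32 (n = 4) in sinus, 10.50 ± 0.53 (n = 3) in urethra and 11.55 ± 0.90 (n = 3) in the reference.

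Between the 3 regions no complex I subunit gene passed the test. The main region fit did not include Theiler stage. The share of later-stage arrays was largest in bladder, smaller in sinus and smallest in urethra. Compared with the sinus, the bladder had 0 of 33 members called at an adjusted p under 0.05, where 2.54% of all genes tested were called. The median log2 difference was -0.25 for the members and -0.19 for all genes, and 25 of 33 members lay under 0, as did 61.8% of all genes. Ndufb1, a small accessory subunit of the distal membrane arm, was the only member with an unadjusted p under 0.05, against 17.2% of all genes. It read 6.64, 6.40 and 5.65 on bladder replicates 2, 6 and 8, the last at the floor, 8.17, 7.74, 6.86 and 7.21 on sinus replicates 1, 2, 6 and 7, and 6.95, 7.31 and 7.69 on urethra replicates 1, 2 and 6. Every bladder array was under the filter level and below every sinus and urethra array; no other member was lower in bladder than in sinus without overlap, where 10.6% of all genes were. The fitted bladder minus sinus difference was -1.26 (SE 0.38, adjusted p = 0.129), and against the filter level sinus Ndufb1 was at least 1.08-fold higher.

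The next members by p in that comparison leaned the other way, with overlapping groups. Ndufa9, an accessory subunit next to the ubiquinone site, read 14.31, 14.22 and 14.01 in bladder and 13.18, 13.76, 14.05 and 13.95 in sinus, a log2 difference of 0.45 (95% interval -0.07 to 0.97). Ndufb2, of the distal membrane arm, read 13.39, 12.98 and 13.66 in bladder and 12.61, 13.24, 12.71 and 13.03 in sinus, a difference of 0.44 (-0.08 to 0.97). Ndufs1, the largest core subunit and a carrier of iron-sulfur clusters, read 12.86, 13.21 and 13.39 in bladder and 12.49, 13.03, 12.90 and 12.86 in sinus, a difference of 0.33 (-0.15 to 0.82). These intervals leave room for differences of either sign. For Ndufs3, the least variable member, the bladder minus sinus difference was 0.06 (-0.38 to 0.49).

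Compared with the sinus, the urethra likewise had 0 of 33 members called, where 0.0133% of all genes were called, and 0 members at an unadjusted p under 0.05, where 10.4% of all genes were. The members had a median log2 difference of 0.24 and all genes 0.05, 26 of 33 lay over 0 (54.4% of all genes), and all 6 core subunits lay above 0 (0.23 to 0.45). Ndufs3 had the smallest p, with a difference of 0.43 (SE 0.20, adjusted p = 0.501). Ndufv2, the core subunit beside the flavin site, read 14.65, 14.36 and 14.30 in urethra and 14.30, 14.42, 13.50 and 13.92 in sinus, a difference of 0.41 (-0.12 to 0.93). Ndufb11, an accessory subunit of the distal membrane arm, read 15.86, 15.23 and 15.17 in urethra and 15.56, 14.91, 14.53 and 14.69 in sinus, a difference of 0.49 (-0.12 to 1.11). In Ndufv2 and Ndufb11 the groups overlapped. The 3 urethra arrays share a style of sample title that no other region array has. With title style as a block the median of the members was -0.21. That fit took the 3 reference arrays as 3 samples, and only reference replicate 3 shares the style of the urethra arrays. Region and style are thus told apart for the urethra through that array alone.

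Bladder against urethra gave 0 of 33 members called, where 4.33% of all genes were called, and 2 members at an unadjusted p under 0.05, both lower in bladder, where 15.9% of all genes were. Over the members the median log2 difference was -0.39, over all genes -0.25, and 26 of 33 lay under 0 (63.1% of all genes). Ndufb11 read 14.74, 14.58 and 14.47 in bladder, each below the 3 urethra values given above, with a difference of -0.82 (SE 0.29, adjusted p = 0.135), and Ndufb1 had a fitted difference of -1.09 (SE 0.41, adjusted p = 0.152), with both group means under the filter level, so that no fold is given. Ndufa8, an accessory subunit facing the intermembrane space, read 13.23, 12.49 and 12.84 in bladder and 14.30, 13.97 and 13.25 in urethra, a difference of -0.99 (-2.23 to 0.26). Without overlap between the groups, 7 members were lower in bladder (22.6% of all genes were) and 1, Ndufa9, was higher (12% of all genes were). With arrays centred on their medians the median differences turned to 0.34 for bladder minus sinus and 0.083 for bladder minus urethra; relative to the median of all genes they were -0.06 and -0.14 as scaled by the authors and -0.34 and -0.50 after quantile normalization.

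Ndufa4 was described apart because its protein belongs to complex IV. It read 12.95, 12.54 and 12.28 in bladder, 12.81, 13.31, 12.35 and 12.14 in sinus, 13.48, 13.16 and 12.90 in urethra and 13.36, 12.96 and 13.14 in the reference. The urethra arrays spanned the range of the reference, and the 3 bladder arrays lay just below it or lower. The log2 difference was 0.53 (-0.15 to 1.21) for urethra minus sinus, -0.59 (-1.32 to 0.14) for bladder minus urethra and 0.03 for urethra minus reference, and none passed the test.

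In all 3 embryonic regions most complex I subunit genes read lower than in the newborn standard, although few passed the test with the reference counted as 1 sample. Of 33 members, 30 had all 3 region means under the reference mean, as had 37.1% of all genes tested, and 23 had their lowest region mean in bladder, as had 53.3%. In 17 members the group means ordered as bladder, sinus, urethra and reference from low to high, as in 12.1% of all genes. No difference between neighbouring regions in that order passed the test for any member. The share of arrays of the later Theiler stage fell from bladder to sinus to urethra, and most members read lower at that stage. The group means were not adjusted for stage, and its part in the order was not tested. In an alternative region fit with stage as a covariate, no member was called between regions, and the median differences of the members kept their sign. The 3 comparisons below share the reference arrays and are not independent.

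The bladder had 1 of 33 members called against the reference, Ndufb1, where 17% of all genes were called in either direction and 11.2% lower. The median log2 difference was -1.01 for the members and -0.27 for all genes, 33 of 33 lay under 0 (58.6% of all genes), and 24 were lower without overlap (31.3% of all genes were). Ndufb1 read 7.52, 9.0 and 9.19 on reference replicates 1, 2 and 3, and its fitted difference was -2.34 (SE 0.58, adjusted p = 0.0222). Because all bladder arrays were under the filter level, the reference was at least 2.26-fold higher. Ndufs3 read 14.14, 14.17 and 14.33 in the reference, above all region arrays, and its bladder difference of -0.97 (SE 0.29, adjusted p = 0.0502) just missed the threshold.

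Larger bladder differences came with larger errors. Ndufb10, an accessory subunit of the distal membrane arm, read 11.31, 10.35 and 11.06 on bladder replicates 2, 6 and 8 and 13.54, 13.69 and 14.31 in the reference, a difference of -2.94 (SE 0.94, adjusted p = 0.0599). On sinus replicates 1, 2, 6 and 7 it read 12.64, 12.78, 10.95 and 10.26, and on urethra replicates 1, 2 and 6 12.69, 12.10 and 11.33, so within each region its stage 21 arrays were above its stage 22 arrays. Ndufv1, the core subunit that binds NADH and the flavin, read 13.15, 12.08 and 12.18 in bladder and 14.12, 14.34 and 14.59 in the reference, a difference of -1.88 (SE 0.64, adjusted p = 0.0745). In Ndufb10 and Ndufv1 every bladder array was below every reference array. Ndufs5 was at least 6.45-fold higher in the reference than the filter level under which its bladder arrays lay (adjusted p = 0.174). The count of called members in bladder was 0 without bladder replicate 8, where Ndufb1 lost its call (adjusted p = 0.0549). It was 6 without sinus replicate 1, 3 without sinus replicate 2, 4 without sinus replicate 7, 4 without reference replicate 1 and 2 without reference replicate 2.

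The urogenital sinus had 4 of 33 members called against the reference, all lower, where 13.8% of all genes were called and 9.2% lower. Of these, 3 belong to the core of the peripheral arm (Ndufs1, Ndufs3 and Ndufv2) and 1 to its accessory subunits (Ndufa9). Ndufs1 read 14.07, 14.10 and 13.81 in the reference and fell by 1.17 on the log2 scale in the sinus (SE 0.32, adjusted p = 0.0355). Ndufs3 fell by 1.02 (SE 0.29, adjusted p = 0.0412), and its highest sinus array, 13.56, was below the lowest reference array, 14.14. Ndufa9 read 14.92, 14.96 and 14.89 in the reference and fell by 1.19 (SE 0.34, adjusted p = 0.0450). Ndufv2 read 15.19, 15.13 and 15.38 in the reference and fell by 1.2 (SE 0.34, adjusted p = 0.0463). All 4 genes had sinus arrays wholly below the reference arrays.

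Over the members, the median sinus difference was -0.82 against -0.01 for all genes, 32 of 33 lay under 0 (50.7% of all genes), and 12 were lower without overlap (18.7% of all genes were). Ndufs4, an accessory subunit at the NADH end, was the exception at 0.18. The 4 calls depended on the processing: the call was kept in 14 of 26 alternatives for Ndufa9, 19 of 25 for Ndufs1, 15 of 26 for Ndufs3 and 13 of 26 for Ndufv2, and the adjusted p reached 0.427, 0.476, 0.496 and 0.356. The number of calls was 0 without bladder replicate 6 or sinus replicate 7, 1 without bladder replicate 8, sinus replicate 6 or urethra replicate 6, and 2 without bladder replicate 2, urethra replicate 1, urethra replicate 2 or reference replicate 3.

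The urethra had 0 of 33 members called against the reference, where 13.2% of all genes were called, and 3 at an unadjusted p under 0.05, all lower (14.3% of all genes were). Its median log2 difference was -0.62 against 0.06 for all genes, 31 of 33 lay under 0 (47.8% of all genes), and 15 were lower without overlap (21.6% of all genes were). Ndufa2, a small accessory subunit of the peripheral arm, and Ndufa4 were the exceptions at 0.08 and 0.03. Ndufa9 read 13.77, 13.60 and 14.00 in urethra, all below its reference values, with a difference of -1.13 (SE 0.35, adjusted p = 0.0633). Ndufs1 read 13.10, 12.77 and 13.29, with a difference of -0.94 (SE 0.33, adjusted p = 0.0938). Ndufa10, an accessory subunit of the proximal membrane arm, read 11.96, 12.31 and 12.81 in urethra and 12.80, 14.05 and 14.66 in the reference, so the groups overlapped narrowly, with a difference of -1.48 (SE 0.57, adjusted p = 0.130). Its bladder values were 13.03, 12.17 and 11.77 and its sinus values 11.85, 12.72, 12.09 and 11.50. The count was 2 without sinus replicate 1 and 1 without reference replicate 1.

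By role, the core subunits of the peripheral arm had the lowest median against the reference in each region. Their median log2 differences were -1.30 in bladder, -1.18 in sinus and -0.83 in urethra, with all 6 under 0 in each. The accessory subunits of the peripheral arm had medians of -0.99, -0.81 and -0.54, those of the proximal membrane arm -0.83, -0.70 and -0.58, and those of the distal membrane arm -1.07, -0.80 and -0.67. The difference between roles was not tested. With arrays centred on their medians, members under 0 numbered 21 in bladder, 29 in sinus and 26 in urethra. Relative to the median of all genes, the member median was -0.74, -0.81 and -0.68 as scaled by the authors and -1.19, -0.92 and -0.77 after quantile normalization.

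**Figure D2:**
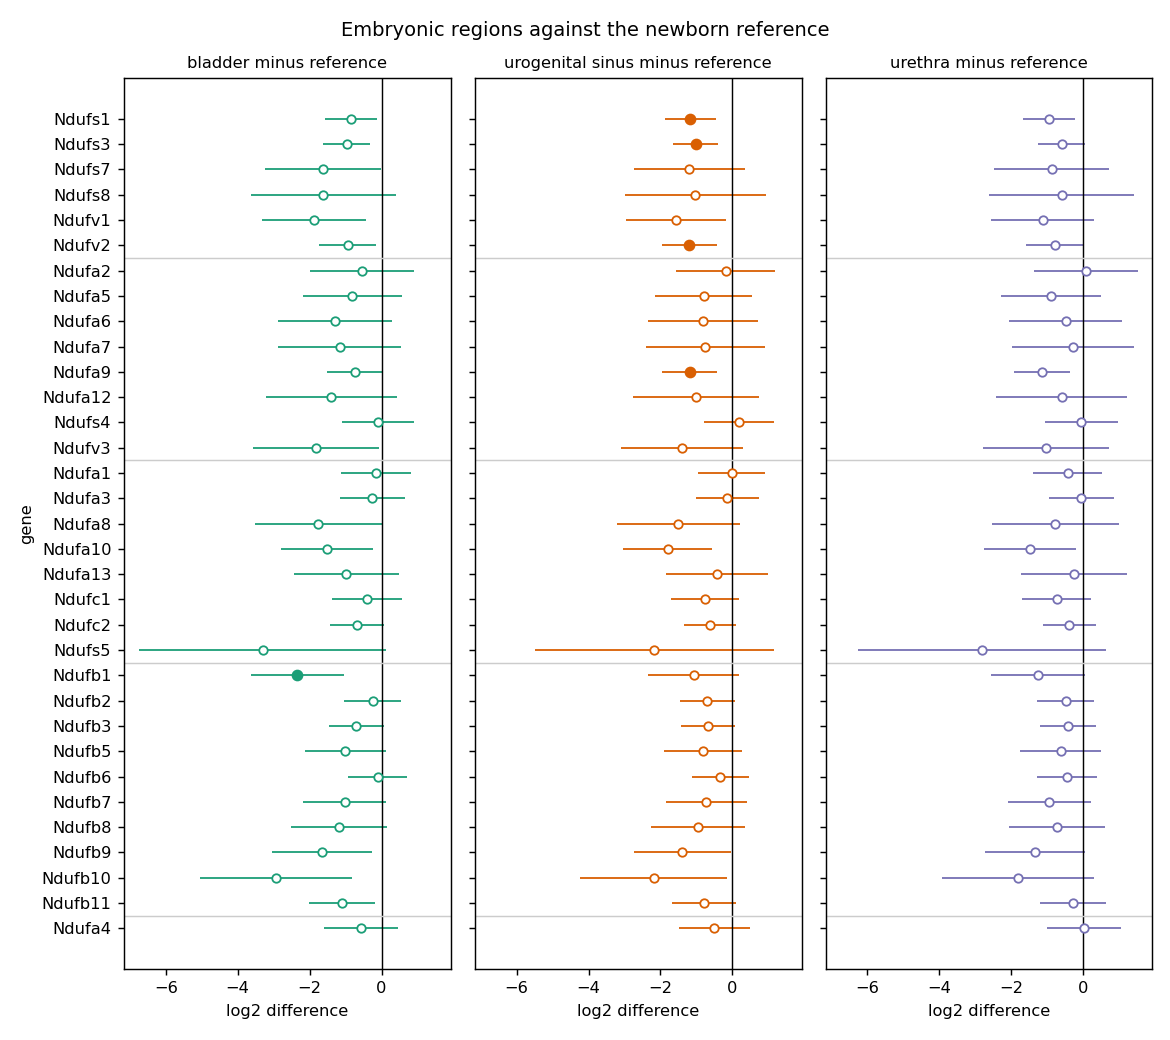
Log2 difference of each region from the newborn reference for the 33 tested genes (rows, by role; grey lines part the roles), with 95% intervals from limma; filled points passed the test. The points lie left of 0 in 33, 32 and 31 of 33 genes, and most intervals include 0.

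Summed markers of skeletal and cardiac muscle, brown fat and liver were also lower on the region arrays than in the reference. Smooth muscle markers summed to 60787 to 77317 in the reference, overlapping bladder and urethra and above every sinus array. Of these 6 markers, 5 lay above the reference in bladder, 3 in urethra and 0 in sinus. In bladder and in urethra 1 was called lower, and the lowest log2 differences were -5.25 and -3.55. Erythroid markers summed to 5925 to 6763 in the reference, below every region array. Of these 4 markers, 3 lay above the reference in each region. In each region 1 was called lower, with log2 differences of -3.70, -3.35 and -2.92 in bladder, sinus and urethra. The summed intensity of 8 skeletal muscle markers was 298652 to 399274 in the reference and 549.57 to 19930 on the region arrays. For 4 tested cardiac muscle markers the sums were 20685.5 to 30599 in the reference and 201 to 486 on the region arrays. For 4 brown fat markers they were 41789 to 52895 against 1746 to 9037, although Dio2, 1 of the 4, was higher in bladder and sinus than in the reference, by 2.58 and 2.48 on the log2 scale, and for 4 liver markers 293041 to 401463 against 468 to 28717. Ckm was at the floor on every urethra array, Nppa, Cidea, Cox8b and Apoa1 on every bladder array, and Cox8b on every sinus array. The part of these tissues in the lower values of the regions was not tested.

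The other genes of oxidative metabolism were examined as lists, each named for its textbook members. Of 14 complex IV genes tested, 4 fell and 1 rose in bladder, 4 fell and 1 rose in sinus, and 3 fell and 1 rose in urethra, against the reference. Of all genes, 5.82%, 4.62% and 4.36% were called higher in these regions and 11.2%, 9.2% and 8.87% lower. Cox6a2, Cox7a1 and Cox8b, the forms used by heart and skeletal muscle, fell in all 3 regions. Cox6a2 had log2 differences of -4.79, -4.1 and -3.92 in bladder, sinus and urethra, with adjusted p-values of 0.010, 0.0207 and 0.0298. Cox8b was at least 8.09-fold higher in the reference than in each region, whose arrays were all under the filter level. It passed the filter through the 3 reference arrays alone, so it could only read lower in the regions, and its calls add no support. Cox5a, a subunit used in all tissues, fell in bladder and sinus, with differences of -1.25 and -1.24 (adjusted p = 0.0417 and 0.0443). Cox7c, another such subunit, rose by 3.18, 3.12 and 2.74, from reference values of 5.65 to 8.16 that include the floor.

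Of 12 citric acid cycle genes, 4 fell in bladder, 5 in sinus and 2 in urethra against the reference. Idh3a, a subunit of the NAD-dependent isocitrate dehydrogenase that makes NADH, fell in all 3, with differences of -1.69, -2.22 and -2.28 (adjusted p = 0.00649, 0.00115 and 0.00133), as did Suclg1, of succinyl-CoA ligase, with -1.15, -1.52 and -1.52. Ogdh and Dlst, of the oxoglutarate dehydrogenase complex, fell in bladder and sinus, and Fh1, fumarase, in sinus by 1.18. The median log2 difference of the list was -1.27, -1.27 and -0.88. Of 9 complex III genes, Uqcrq fell in bladder by 2.15 and no other passed, and the list's medians were -1.39, -1.36 and -0.97. Of 15 complex V genes (ATP synthase), Atp5b and Atp5c1 fell in sinus, with differences of -1.24 and -0.96, and with list medians of -0.80, -0.77 and -0.37. None of 4 complex II genes passed, with medians of -0.73, -0.82 and -0.81.

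Lists of genes that build complex I or mitochondria had medians nearer to 0. Of 14 complex I assembly genes, 1 rose in bladder against the reference: Nubpl, which delivers iron-sulfur clusters to complex I, by 1.71 (SE 0.42, adjusted p = 0.0210). The medians of the assembly list were 0.11 in bladder, -0.25 in sinus and -0.01 in urethra. The 24 mitochondrial ribosome genes had medians of -0.39, -0.31 and 0.10 and none called, and the 12 regulators of mitochondrial biogenesis had -0.13, 0.08 and 0.02 and none called. Of 11 glycolysis genes, Aldoa and Pfkp fell in bladder, with differences of -2.06 and -2.67, and Aldoa in sinus, with -2.07. Between regions, Tfb1m, which modifies mitochondrial ribosomal RNA, was higher in bladder than urethra by 1.34 (SE 0.30, adjusted p = 0.0383), and Twnk, the mitochondrial DNA helicase, was lower, with a difference of -1.3 (SE 0.30, adjusted p = 0.0427); no other gene of these lists was called between regions.

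Within the embryonic regions, complex I subunit genes read lower at Theiler stage 22 than at stage 21, without any gene passing the adjusted test. With region as a covariate, 0 of 33 members and 0 of 15019 genes were called by limma, or 0% of the background. At an unadjusted p under 0.05, 22 of 33 members were lower at stage 22 and none higher, where 15.3% of all genes were lower and 10.2% higher. Members had a median log2 difference of -0.62 and all genes of -0.11, and 31 of 33 members lay under 0 (57.7% of all genes). The smallest adjusted p among members was 0.0770. Without overlap between the stages, 11 members were lower, where 3.52% of all genes were. The labels do not say whether same-numbered arrays share an embryo. If they do, each stage holds fewer embryos than arrays, and the regions are not independent in this comparison.

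Ndufa12, an accessory subunit of the peripheral arm, had the smallest p. At stage 21 it read 13.13 on bladder replicate 2, 13.95 and 13.81 on sinus replicates 1 and 2, and 13.94 and 13.76 on urethra replicates 1 and 2. At stage 22 it read 12.24 and 12.54 on bladder replicates 6 and 8, 12.27 and 12.03 on sinus replicates 6 and 7, and 12.58 on urethra replicate 6. All 5 later arrays were below all 5 earlier ones, with a difference of -1.31 (SE 0.19, 95% interval -1.75 to -0.88, adjusted p = 0.0770). Its 3 probe sets that passed the filter had differences between -1.31 and -1.09.

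Ndufs8, a core subunit with iron-sulfur clusters close to the ubiquinone site, read 13.12, 14.26, 14.05, 14.46 and 13.35 on the stage 21 arrays in the same order. At stage 22 it read 12.19, 12.36, 12.19, 12.14 and 12.98. The ranges did not overlap, and the difference was -1.36 (SE 0.28, adjusted p = 0.0770). Of its 6 probe sets, 5 had differences between -1.57 and -0.98, and the dimmest had 0.54.

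Ndufa6, an accessory subunit of the peripheral arm that binds the acyl carrier protein, read 12.80, 13.84, 13.78, 13.72 and 13.57 at stage 21 and 12.20, 12.61, 12.28, 12.15 and 12.74 at stage 22. Ndufa7, of the same arm, read 11.31, 11.68, 12.32, 12.07 and 11.96 at stage 21 and 10.70, 10.43, 10.74, 10.16 and 11.08 at stage 22. Neither gene's stages overlapped, and the differences were -1.05 (SE 0.22) and -1.14 (SE 0.23), each with an adjusted p of 0.0770.

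By role, the accessory subunits of the peripheral arm had a median stage difference of -1.0, with 6 of 8 lower at an unadjusted p under 0.05. The core subunits had a median of -0.63 and 4 of 6, the distal membrane arm -0.51 and 8 of 10, and the proximal membrane arm -0.44 and 3 of 8, where 15.3% of all genes were lower. The difference between roles was not tested. Ndufs1 and Ndufa9 were the 2 members above 0, at 0.27 (-0.08 to 0.63) and 0.26 (-0.15 to 0.67), both also among the members called lower in sinus than in the reference. Ndufb2 was at -0.05 (-0.51 to 0.40) and Ndufs3 at -0.12 (-0.48 to 0.24). Thus the subunits did not all shift by the same amount: from bladder replicate 2 to replicates 6 and 8, for example, Ndufs1 went from 12.86 to 13.21 and 13.39.

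**Figure D3:**
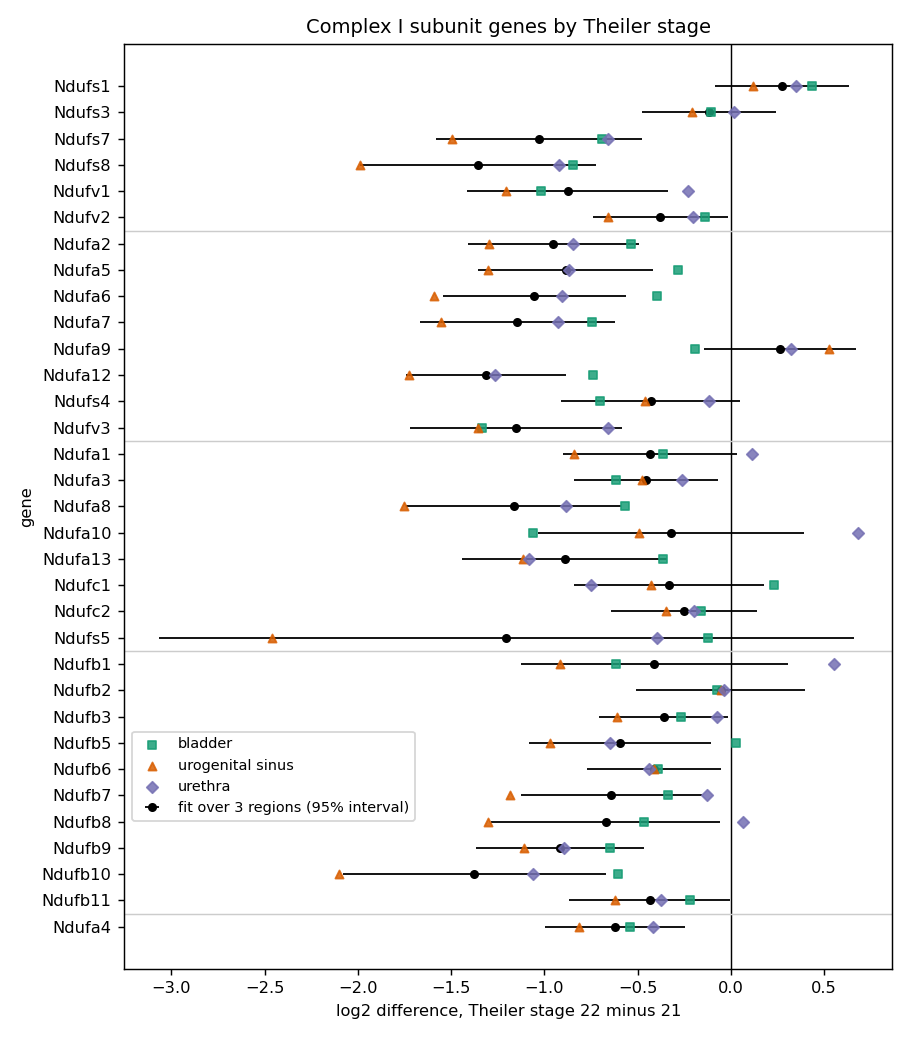
Log2 difference of Theiler stage 22 from stage 21 for the 33 tested genes (rows, by role), from the fit over 3 regions with its 95% interval (black) and as the plain difference of means within each region (coloured). Black points lie left of 0 in 31 of 33 genes; the sinus points lie farthest left in most rows.

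Within single regions, 19 of 33 members were lower at stage 22 in each of the 3 regions without overlap, where 11.5% of all genes were. The count was 29 in bladder (39.4% of all genes), 26 in sinus (30.3%) and 22 in urethra (32.7%); in bladder 1 stage 21 array was compared with 2 of stage 22, in sinus 2 with 2, and in urethra 2 with 1. For Ndufb10 the stage difference was -0.61 in bladder, -2.10 in sinus and -1.06 in urethra. Whether the difference depended on region was tested with an interaction term: no gene was called, and 1 member, Ndufa6, and 1.48% of all genes had an unadjusted interaction p under 0.05.

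Other measures moved with stage as well. The log2 ratio of the 3′ to the 5′ Gapdh control probe set, a sign of how far RNA or its amplified copies were shortened, was 2.71 to 4.59 on stage 21 arrays and 4.54 to 5.26 on stage 22 arrays. The same ratio for Actb overlapped between the stages, at 1.21 to 3.42 and 1.34 to 4.04. The summed intensity of erythroid markers was 45015 to 145301 at stage 21 and 38295 to 60648 at stage 22, and the median log2 intensity of all tested genes was 10.02 to 10.36 and 9.80 to 10.20. The part of these in the stage difference was not tested. Without sinus replicate 1 and urethra replicate 1, the arrays with the most erythroid signal, 14 members were lower at an unadjusted p under 0.05 and the median was -0.48. Both are stage 21 arrays, so that fit also held fewer arrays, and the share of all genes is not given. The count therefore cannot show the part of the erythroid signal. With arrays centred on their medians, 7 members were lower at that level, where 3.31% of all genes were.

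**Figure D4:**
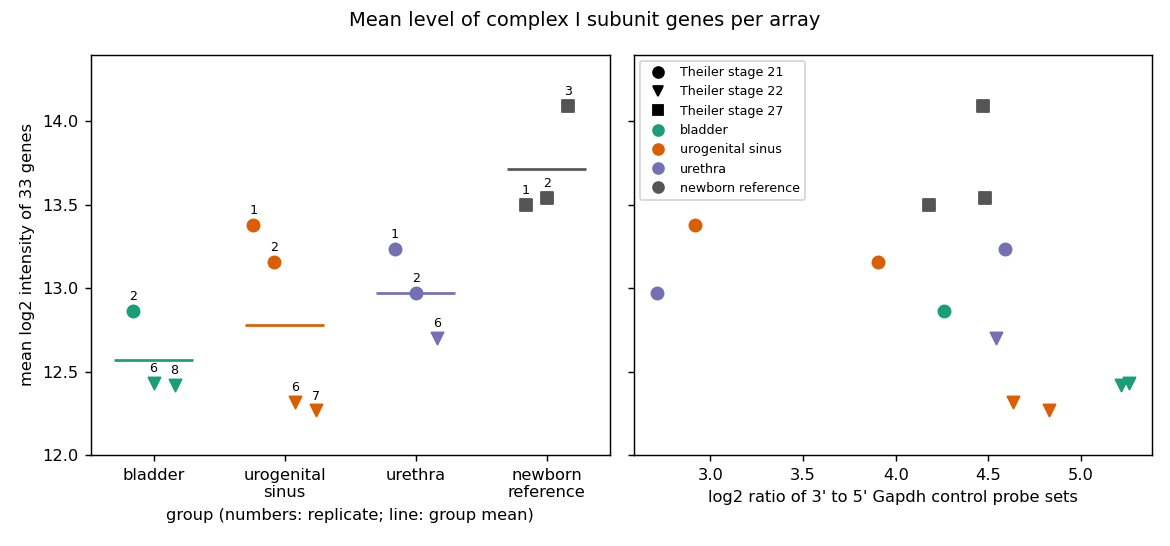
Mean log2 intensity of the 33 tested genes on each array, by group (left; lines are group means) and against the log2 ratio of the 3′ to the 5′ Gapdh control probe sets (right). Shapes mark Theiler stage; within each region the stage 22 arrays (12.27 to 12.71) lie below the stage 21 arrays (12.86 to 13.38), and the reference arrays lie highest.

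The stage comparison was also counted by kind of probe set; the kinds hold different genes, and the difference between them was not tested. Suffixes of probe set names mark probes shared by transcripts of 1 gene (_a), by several genes (_s) or with cross-hybridizing sequences (_x). At an unadjusted p under 0.05, lower members numbered 4 of 10 with no suffix, 11 of 15 with _a, 2 of 3 with _s and 5 of 5 with _x, with median differences of -0.42, -0.64, -0.89 and -0.88. Among unsuffixed probe sets were Ndufa6, Ndufa4 and Ndufa8 with differences of -1.05, -0.62 and -1.17. Also among them were Ndufa9 at 0.26, Ndufs3 at -0.12 and Ndufa10 at -0.32. Using unsuffixed probe sets only, 25 members could be tested and 9 were lower at that level, where 12.9% of all genes were. Of 19 genes with several kept probe sets, 5 had sets of opposite sign between stages, among them Ndufs8 and Ndufa10, and 2 in each comparison with the reference.

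Neighbouring parts of oxidative phosphorylation had stage differences of like sign, and so had glycolysis genes and regulators of mitochondrial biogenesis. At an unadjusted p under 0.05, 7 of 9 complex III genes, 7 of 14 complex IV genes, 8 of 15 complex V genes and 9 of 24 mitochondrial ribosome genes were lower at stage 22 (15.3% of all genes were), with medians of -0.75, -0.44, -0.42 and -0.40. At the same p, 1 complex IV gene and 1 mitochondrial ribosome gene were higher. Of 11 glycolysis genes 4 were lower and 0 higher, with a median of -0.42. Of 12 regulators of mitochondrial biogenesis 4 were lower and 1 higher, with a median of -0.46. Of 14 complex I assembly genes 0 were lower and 2 higher, and the median was -0.11, the same as for all genes. Of 12 citric acid cycle genes 2 were lower and 1 higher, with a median of -0.16, and for 4 complex II genes 1, with a median of -0.27. None of these genes was called after adjustment.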

How the data were processed

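For 13 samples, RNA went through 2 rounds of amplification and biotin labelling before hybridization to Affymetrix MOE430 arrays, per the labels' protocols. The authors deposited linear intensity per probe set; the submitters' processing notes name GCOS with neither version nor settings. Intensities were floored at the 20th percentile (50.23, 5.65 on the log2 scale), log2 transformed and kept where at least 3 arrays exceeded the 40th percentile (167.76, 7.39 on the log2 scale). Each gene kept its brightest such probe set by mean. Gene symbols are those of the platform annotation; all 34 members matched RefSeq (GRCm38.p6) by Entrez identifier and 0 symbols differed.

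Differences were tested by limma 3.58.1 under R 4.3.3 (lmFit, then eBayes with intensity trend) over 15019 genes, two-sided. Benjamini-Hochberg adjustment was over all of them, with calls at an adjusted p under 0.05. Region comparisons came from a single fit of the 10 region arrays. Since the 3 reference arrays hold the same kind of pool, they were averaged into 1 sample, which was assumed to vary like the regions. Stage was fitted with region as covariate. Fits were run on simulated data with independent noise and shifts in bladder only. That simulation had no stage, title style or shared embryo in it, so it cannot speak to those. "At least" folds are measured against the filter level.

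Any member may be named. Array values are given for called members, or the 4 with the smallest p where fewer than 4 were called, for the members with the largest and smallest spread, and for Ndufa4; called genes of other lists are named, up to 3 per list, and a few more by their place in a count. The members and lists were chosen with earlier results of these data known. Alternatives covered scaling, floor, filter, probe set choice, limma settings, covariates, blocks (statmod 1.5.0) and each array left out. The number of arrays limits the precision.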

Additional observations from a re-analysis of the deposited data

Results flagged for a closer look

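Of 34 groups of 4 sinus arrays tested for a single array apart, 3 had one, where chance gives about 1 in 20. Urogenital sinus replicate 1 stood above the other sinus arrays for Ndufs5, at a log2 intensity of 11.15 against 6.66 to 7.12, and for Ndufc2, at 15.70 against 14.89 to 14.97. Urogenital sinus replicate 6 stood below the others for Ndufs4, at 10.72 against 11.38 to 11.51.

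For 6 of the 33 tested genes the arrays of Theiler stage 22 all lay above those of stage 21 in a region and all below in another, which was not tested as a flag of its own; no interaction of stage and region passed the adjusted test. The stage difference in the urethra minus that in the sinus was 0.96 for Ndufa1 and 1.47 for Ndufb1, and the urethra minus bladder value was 1.74 for Ndufa10. The sinus minus bladder value was 0.72 for Ndufa9, the bladder minus sinus value 1.00 for Ndufb5 and the bladder minus urethra value 0.98 for Ndufc1. The regions compared hold 3 or 4 arrays each, so a stage within a region is often a single array.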

How the results depend on the processing

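Results with 0 members called between regions kept that count under the alternatives run, except bladder against sinus with array quality weights, where 2 were called. The median difference of the members turned to 0.34 (bladder against sinus) and 0.083 (bladder against urethra) when arrays were centred on their medians, to 0.12 (bladder against sinus) with array quality weights and to -0.21 (urethra against sinus) when the style of the sample titles was fitted as a block; the cause was not tested. Against the reference, members called in bladder, sinus and urethra numbered 20, 25 and 4 with array quality weights. They numbered 21, 12 and 6 with the 3 reference arrays as 3 samples (more samples entering the fit). With title style as a block, a fit that also took the reference as 3 samples, they numbered 11, 8 and 1. In bladder the count was 0 with arrays centred on their medians (median -0.17), 2 with quantile normalization, a floor at the 40th percentile, no filter, the mean of all kept probe sets or title number as a random replicate block, and 3 with unsuffixed probe sets (fewer genes). In sinus it was 0 with centring, with no floor and without intensity trend, and in urethra 1 with quantile normalization and 2 with the higher floor. Without both arrays numbered 1, added after seeing the data, it was 6, 9 and 2. For stage, 9 members were called with no floor and 15 with array quality weights; members lower at an unadjusted p under 0.05, a count added after seeing the data, numbered 7 with centring, 9 with unsuffixed probe sets and 14 without both arrays numbered 1. Leaving out single arrays gave 0 to 6 calls in bladder, 0 to 6 in sinus and 0 to 2 in urethra against the reference, 0 between regions and stages, and 15 to 22 members lower by stage. Medians then ran from -0.42 to -0.01 (bladder against sinus), 0.06 to 0.44 (urethra against sinus), -0.60 to -0.27 (bladder against urethra), -1.11 to -0.87, -1.10 to -0.65 and -0.90 to -0.47 (bladder, sinus and urethra against the reference) and -0.80 to -0.45 (stage). Deviations of same-numbered arrays from their region means had correlations of -0.17 to 0.36. Such arrays always share a stage, and the means rest on 3 or 4 arrays, so this cannot decide whether numbers pair samples. The labels do not say, so the main fits had no block. A replicate block gave 0 calls between regions and stages. Medians between regions were -0.09, 0.07 and -0.13 with a fixed block, which also takes up stage. Calls against the reference were 2, 3 and 0 with a random block. Counts of calls under the alternatives, here and above, are given without the share of all genes called in the same fit. They cannot be read as particular to the members. No calls of present or absent signal were used, so low values such as those of Ndufb1, Ndufb4 and Ndufs5 have only a stand-in limit.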

Other observations

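Of the probe sets with several symbols, 9 name a subunit that the naming rule used here covers and entered no comparison. A probe set shared by Ndufb4, Ndufb4b and Ndufb4c had a log2 intensity of 12.80 ± 0.42 (SD, n = 3) in bladder, 12.85 ± 0.74 (n = 4) in sinus, 13.31 ± 0.54 (n = 3) in urethra and 13.64 ± 0.34 (n = 3) in the reference. Its stage 21 arrays lay between 13.11 and 13.93 and its stage 22 arrays between 12.20 and 12.91, without overlap.

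A probe set shared by Ndufa11 and Ndufa11b read 11.18 ± 0.30 (n = 3) in bladder, 11.49 ± 1.07 (n = 4) in sinus, 11.97 ± 0.42 (n = 3) in urethra and 12.53 ± 0.48 (n = 3) in the reference, with stage 21 arrays at 11.53 to 12.48 and stage 22 arrays at 10.23 to 11.53. A set shared by Ndufs6 and Ndufs6b read 12.54 ± 0.25, 12.79 ± 0.52, 12.65 ± 0.38 and 13.03 ± 0.37 in the same groups, and its stages overlapped (12.23 to 13.27 and 12.28 to 12.76). Near-identical gene copies cannot be told apart in these sets.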
